A study of Oryza sativa Japonica Group with 20 samples.

Results

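The comparison described here is that of wild-type rice seedlings (Oryza sativa, Japonica group) given gibberellin for 1 h with wild-type control seedlings, measured by RNA sequencing. It covers 6 of the 20 samples of the series, 3 control libraries and 3 libraries from seedlings that received 100 uM gibberellin (GA) through the roots. All seedlings grew on Murashige and Skoog medium, the tissue is labelled seedling, and no source used here gives the age of these seedlings. No vehicle is named for the control. Of the 31290 genes in the table, 23283 reached 10 normalised reads in at least 3 of the 6 libraries and were tested. The labels do not say whether replicates were separate plants, pools or repeats of 1 extract, so the p-values reflect the spread among these libraries alone, and that spread may be technical.

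Gibberellins are diterpenoid hormones that promote stem elongation, seed germination and flowering. In rice, the receptor GID1 binds GA and then the DELLA repressor SLR1, which is passed by the F-box protein GID2 to the proteasome and degraded, so that genes held back by SLR1 can respond. GA commonly acts against abscisic acid (ABA), the hormone of seed dormancy and water stress. Gene names below are pairs of symbol and locus ID written from general knowledge, because the tables hold IDs only and the RefSeq gene table used here lists none of them. Of the 424 pairs in 41 lists, 318 symbols were found in that table, 312 of them on the chromosome that the ID states and 6 on another one.

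The 6 libraries held 17919838 to 20979965 reads assigned to genes, and their recovered reads were whole to within 0.01 at 100% of values. Squared differences between 2 replicates, divided by their counting variance, averaged 1.88 to 3.07 where counting noise alone gives 1, so no library was a copy of another. Correlations of log2 values over genes were 0.991 to 0.992 among controls, 0.990 to 0.991 among GA libraries and 0.979 to 0.980 between the groups. The first principal component carried 54.6% of the variance and separated the groups.

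A gene is said to have risen or fallen where limma's adjusted p was under 0.05 and the change at least 2-fold, and to be higher or lower where it passed on adjusted p with a smaller change. Differences are given as log2 fold changes of GA over control, in log2 units. By this rule 284 genes rose (1.22% of those tested) and 232 fell (0.996%), 2.22% together. On adjusted p alone, whatever the size, 3981 genes were higher (17.1%) and 3700 lower (15.9%). Of these 7681 genes, 5300 (69%) differed by less than 0.5 on the log2 scale. The median over all tested genes was -0.01, and the 5th and 95th percentiles were -0.52 and 0.65. The response at 1 h was made of many small differences and few large ones. A change of more than 4-fold was found for 48 genes that fell and for 19 that rose. The shares of all tested genes that were called, higher or lower are the background for each list count below.

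**Figure D1:**
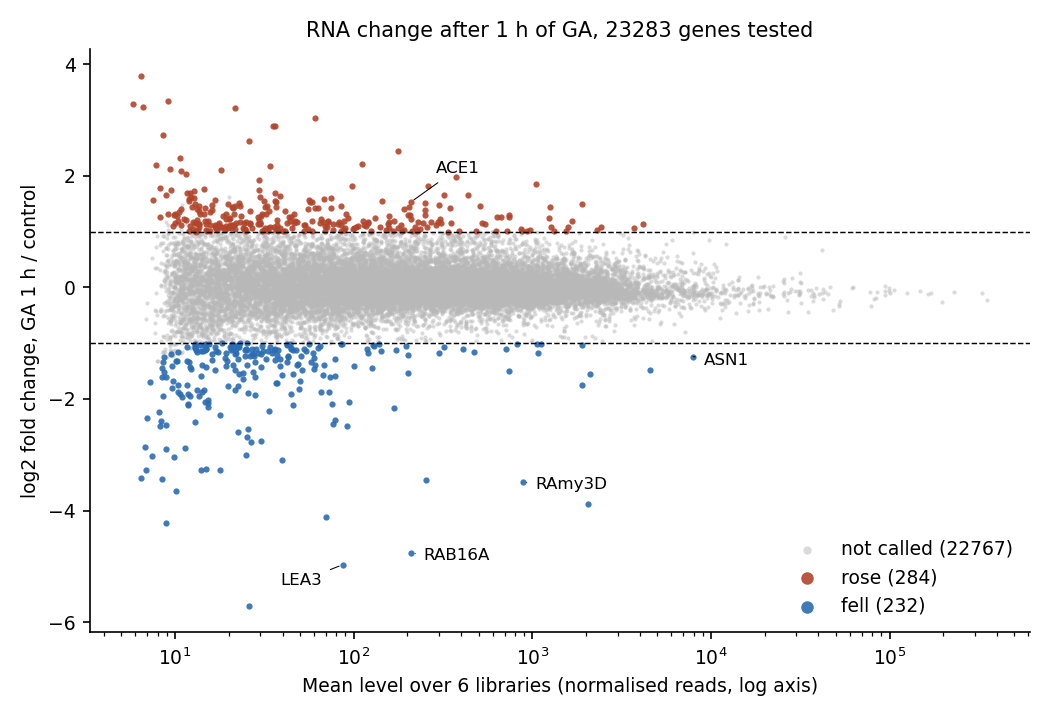
Log2 fold change (GA over control) of each of the 23283 tested genes against its mean level in normalised reads on a log axis; red points rose (284), blue points fell (232), grey points were not called, and dashed lines mark 2-fold. RAmy3D, RAB16A and LEA3 lie far below the cloud, and ASN1, farthest right of the 5 labelled genes, lies just below 2-fold.

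Genes that changed were mostly little expressed. The median level was 36.4 normalised reads for those that rose and 25.2 for those that fell, against 241 over all tested genes. Of genes under 50 normalised reads 7.19% were called, and of those at 1000 or more 0.571%, while the share passing on adjusted p alone went from 14% to 59%. The 3 libraries of a group did not overlap with the other 3 for 266 of the 284 genes that rose and 224 of the 232 that fell, against 21.7% and 21.5% of all tested genes that were separated upwards and downwards. Of those called, 44 genes that rose and 64 that fell reached the tested level only through the group in which they were higher, and such genes had to differ. With each library left out in turn, 156 of the 284 and 140 of the 232 were called in all 6 refits.

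Genes of the ABA response included the 2 largest decreases among list members. Dehydrins and other late embryogenesis abundant (LEA) proteins protect cells that lose water and are raised by ABA. Of 9 listed members, 8 were in the table and 6 reached the tested level. Of these 3 fell, 2 more were lower and 1 did not pass, with a median log2 fold change of -2.12. LEA3 and RAB16B, described below, reached the tested level only through the controls and had to be lower, which partly fixed this median.

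RAB16A (LOC_Os11g26790), the best known ABA-raised dehydrin of rice, stood at 418, 394 and 402 normalised reads in the controls and at 12.9, 11.7 and 17.8 after GA. RAB16A fell 28.7-fold with no overlap between the groups (limma, -4.77 ± 0.17 log2 units, SE, adjusted p = 1.95e-20). LEA3 (LOC_Os05g46480), a group 3 LEA protein, stood at 167, 153 and 189 normalised reads in the controls and at 4.28, 4.86 and 4.19 after GA. The groups did not overlap, and LEA3 fell 38.2-fold (limma, -4.97 ± 0.25 log2 units, SE, adjusted p = 1.52e-16). All 3 GA libraries held fewer than 5 normalised reads of LEA3, so its ratio rests on few reads.

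RAB16B (LOC_Os11g26780), the neighbour of RAB16A on chromosome 11, stood at 32.0, 30.8 and 35.5 normalised reads in the controls and at 4.28, 2.92 and 1.05 after GA. Every GA library was below every control, and RAB16B fell 11.9-fold (limma, -3.27 ± 0.43 log2 units, SE, adjusted p = 2.48e-07). RAB16C (LOC_Os11g26760), from the same cluster, was lower, at -0.96 log2 units (limma adjusted p = 0.0496), and RAB16D (LOC_Os11g26750) stood at 5.16, 10.3 and 6.53 in the controls and at 2.14, 0.972 and 0 after GA, below the tested level. These RAB16 genes are close copies of each other, so reads may have been shared or lost among them. LIP9 (LOC_Os02g44870), a dehydrin of cold and drought, stood at 2619.8, 2553 and 2598 normalised reads in the controls and at 2171, 2118 and 2172 after GA, a small difference in groups that did not overlap (limma, -0.27 log2 units, adjusted p = 2.73e-07). RAB25 (LOC_Os01g50700) did not pass, at a log2 fold change of 0.11. LEA3 and RAB16B reached the tested level only through the controls, whereas RAB16A was above it in every library. RAB16C no longer passed without control replicate 1, 2 or 3 or GA replicate 1 or 2 or with a pseudocount of 0.5, no filter, TMM rescaling or DESeq2 (highest adjusted p = 0.192).

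Clade A PP2C phosphatases are negative regulators of ABA signalling whose transcripts are themselves raised by ABA. Of 9 members, all tested, 1 fell, 1 was lower, none was higher and 7 did not pass. Over all tested genes 33% passed on adjusted p and 15.9% were lower, so this count is no result about the family. PP2C68 (LOC_Os09g15670) stood at 31.0, 21.4 and 42.0 normalised reads in the controls and at 8.57, 7.77 and 8.37 after GA. PP2C68 fell 3.82-fold with no overlap between the groups (limma, -1.76 ± 0.34 log2 units, SE, adjusted p = 0.000104). Only the controls of PP2C68 reached the tested level. PP2C49 (LOC_Os05g38290) was lower, at -0.83 log2 units (limma adjusted p = 0.00705). The list median was -0.11. PP2C51 (LOC_Os05g49730) was at -0.69 and did not pass (limma adjusted p = 0.107). PP2C49 no longer passed without GA replicate 3 (highest adjusted p = 0.0668).

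Of 8 genes of ABA synthesis and breakdown, 2 were higher, 2 were lower, 1 fell and 3 did not pass. ABA8ox1 (LOC_Os02g47470), a cytochrome P450 that breaks ABA down, stood at 388, 398 and 409 normalised reads in the controls and at 696, 688 and 691 after GA. All GA libraries were above all controls, by a log2 fold change of 0.79 (SE 0.061, limma adjusted p = 4.04e-12), below the 2-fold minimum. NCED1 (LOC_Os02g47510), of the cleavage step in ABA synthesis, was higher by 0.29 log2 units. NCED4 (LOC_Os07g05940), of the same step, stood at 11.4, 11.2 and 11.2 normalised reads in the controls and at 4.28, 0.972 and 4.19 after GA. NCED4, which reached the tested level only through the controls, fell (limma, -1.70 log2 units, adjusted p = 0.0123), and was no longer called without GA replicate 2 (-1.23 log2 units, adjusted p = 0.0659). ABA8ox3 (LOC_Os09g28390) and ABA1 (LOC_Os04g37619), the latter of zeaxanthin epoxidation, were lower, at -0.56 and -0.12 log2 units. ABA8ox3 no longer passed without control replicate 1 or GA replicate 2 or with DESeq2 (highest adjusted p = 0.0956). ABA1 no longer passed without GA replicate 1 (highest adjusted p = 0.0949).

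Kinases and bZIP factors that carry the ABA signal gave no call, where 2.22% of all tested genes were called. Of 12 listed members 10 were tested, of which 1 was higher and 2 were lower, against 17.1% and 15.9% of all tested genes. These counts, and the absence of calls among 10 members, are thus no result about the list. SAPK1 (LOC_Os03g27280), an ABA- and salt-activated kinase, was lower, at -0.39 log2 units (limma adjusted p = 2.77e-06), SAPK8 (LOC_Os03g55600) was lower, at -0.14 log2 units and bZIP12 (LOC_Os01g64730) was higher by 0.19 log2 units. The median of this list was -0.02. SAPK8 no longer passed without control replicate 1 or GA replicate 2 (highest adjusted p = 0.0692). bZIP12 no longer passed without GA replicate 1 (highest adjusted p = 0.0997).

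**Figure D2:**
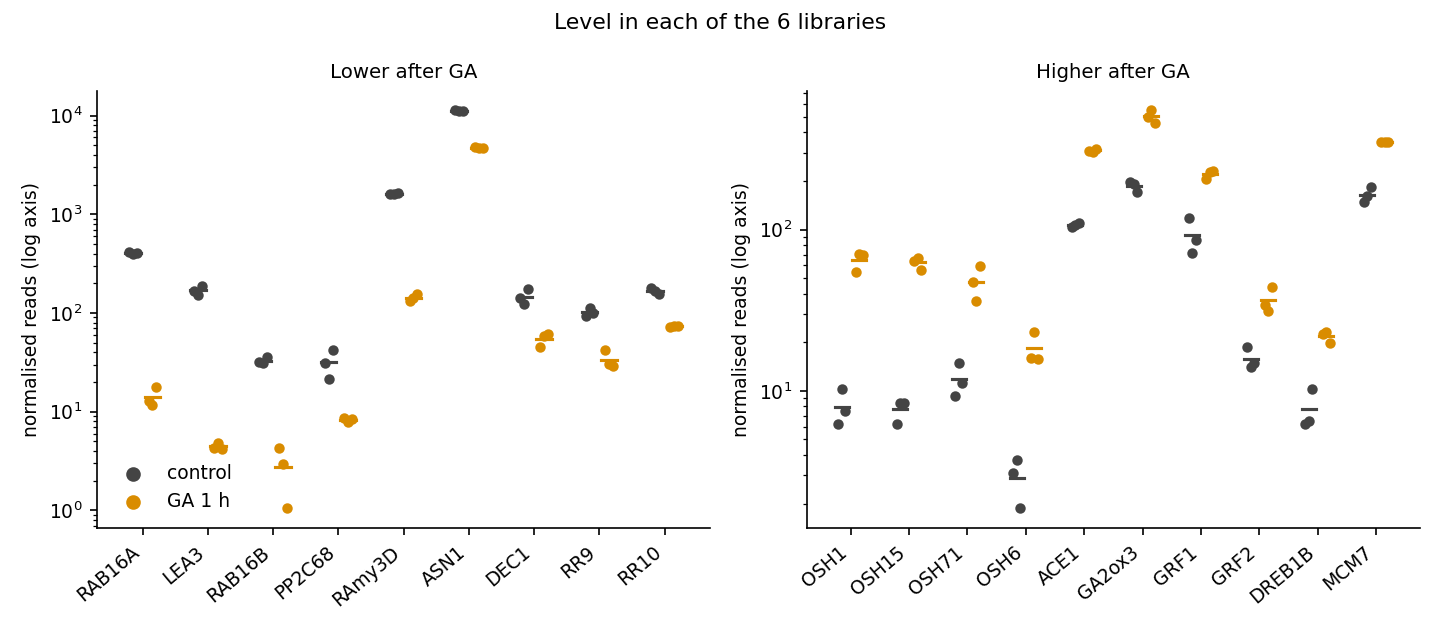
Level of 19 list genes in each of the 6 libraries, in normalised reads on a log axis, with control libraries in dark grey, GA libraries in orange and group means as short lines. For every gene shown the 3 GA libraries lie wholly below (left panel) or wholly above (right panel) the 3 controls; genes differ in length, so heights compare libraries and not genes.

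RAmy3D, of starch breakdown, and ASN1, of nitrogen storage, fell. RAmy3D (LOC_Os08g36910), an alpha-amylase known to be raised when sugar is short, stood at 1619, 1606 and 1642 normalised reads in the controls and at 133, 142 and 155 after GA. The groups did not overlap, and RAmy3D fell 11.3-fold (limma, -3.50 ± 0.067 log2 units, SE, adjusted p = 2.86e-27). RAmy1C (LOC_Os02g52700) stayed at 4.28 normalised reads or less in every library and was not tested, and 3 further members of the alpha-amylase list were not analysed here. ASN1 (LOC_Os03g18130), an asparagine synthetase that stores nitrogen in asparagine, stood at 11275, 11113 and 11115 normalised reads in the controls and at 4784, 4737 and 4646 after GA. Every GA library was below every control, and ASN1 fell 2.36-fold (limma, -1.24 ± 0.026 log2 units, SE, adjusted p = 1.66e-26).

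Of 20 nitrogen genes 14 were tested, of which 3 were higher, 6 were lower and ASN1 fell. The leaf enzymes NiR (LOC_Os01g25484, nitrite reductase) and GS2 (LOC_Os04g56400, plastid glutamine synthetase) were lower, at -0.23 and -0.20 log2 units, while the nitrate transporters NRT1.1B (LOC_Os10g40600) and NRT1.1A (LOC_Os08g05910) were higher by 0.41 and 0.19 log2 units. In the sugar list, 2 of 7 tested members were higher and 2 lower. SUS1 (LOC_Os03g28330), a sucrose synthase, stood at 32748, 31802 and 32783 normalised reads in the controls and at 51171, 51530.1 and 51248 after GA, a log2 fold change of 0.66 (SE 0.019, limma adjusted p = 7.47e-23) with no overlap. The cell wall invertases went opposite ways, CIN1 (LOC_Os02g33110) being lower, at -0.41 log2 units and CIN2 (LOC_Os04g33740) higher by 0.33 log2 units. The sucrose transporter SUT1 (LOC_Os03g07480) was lower, at -0.27 log2 units.

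Most genes of DNA replication and mitosis and most growth-regulating factors were higher, mainly by less than 2-fold. All 15 genes of DNA replication and mitosis were tested: 1 rose, 12 more were higher, none was lower and 2 did not pass. Their median log2 fold change was 0.82, where the median of all tested genes was -0.01. MCM7 (LOC_Os12g37400), a subunit of the replicative helicase, stood at 149, 162 and 184 normalised reads in the controls and at 348, 349.8 and 348 after GA. MCM7 rose 2.11-fold with no overlap between the groups (limma, 1.08 ± 0.093 log2 units, SE, adjusted p = 5.63e-11).

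The other helicase subunits MCM2 to MCM6 were higher by 0.84 to 0.99. PCNA (LOC_Os02g56130), the sliding clamp of DNA polymerase, stood at 453, 420.4 and 447 normalised reads in the controls and at 824, 823 and 881 after GA (limma, 0.94 ± 0.059 log2 units, SE, adjusted p = 4.47e-14). The mitotic genes were also higher, CYCB2-2 (LOC_Os06g51110) by 0.82, CDKB2 (LOC_Os08g40170), a plant kinase of mitosis, by 0.76 and CYCB1 (LOC_Os01g59120) by 0.58. CDKA1 (LOC_Os03g02680), the kinase present through the cycle, was at 0.03 and KRP1 (LOC_Os02g52480), an inhibitor of these kinases, at 0.13, and neither passed (limma adjusted p = 0.732 and 0.073). In seedling RNA, fewer cells of a type and less RNA per cell cannot be told apart, and the same holds for more.

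Growth-regulating factors (GRFs) are transcription factors of dividing tissue that work with the coactivator GIF1. The list of 12 GRFs and GIF1 was tested in full: 3 rose, 7 more were higher, none was lower and 3 did not pass, with a median of 0.80. GRF1 (LOC_Os02g53690) stood at 119, 71.8 and 85.9 normalised reads in the controls and at 207, 228 and 230.3 after GA. The groups did not overlap, and GRF1 rose 2.41-fold (limma, 1.29 ± 0.14 log2 units, SE, adjusted p = 5.81e-09). GRF2 (LOC_Os06g10310), whose name is uncertain because RefSeq places that symbol on another chromosome, stood at 18.6, 14.0 and 14.9 normalised reads in the controls and at 34.3, 31.1 and 44.0 after GA (limma, 1.15 log2 units, adjusted p = 0.00155).

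GRF12 (LOC_Os04g48510) stood at 15.5, 7.46 and 10.3 normalised reads in the controls and at 24.6, 28.2 and 16.7 after GA. GRF12 rose at the edge of the 2-fold minimum (limma, 1.03 ± 0.35 log2 units, SE, adjusted p = 0.0234) and kept its call in 2 of 6 refits without 1 library, with a highest adjusted p of 0.112. It was not called without control replicate 2 or 3 or without GA replicate 1 or 2. GRF7 (LOC_Os12g29980) and GRF10 (LOC_Os02g45570) were higher by 0.95 and 0.94 log2 units, and GIF1 (LOC_Os03g52320), a name with the same doubt as GRF2, by 0.80. GRF9 (LOC_Os03g47140) was at -0.02 and did not pass.

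**Figure D3:**
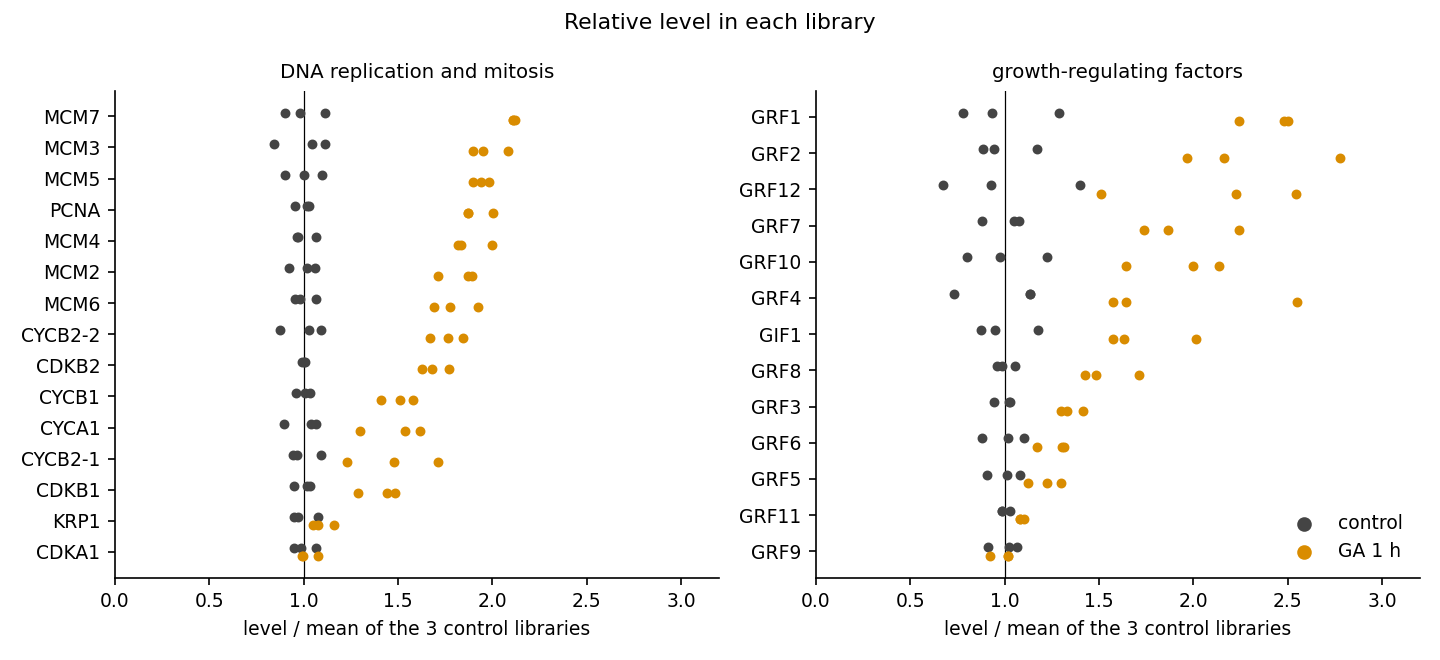
Level of each gene of DNA replication and mitosis (left) and of the GRFs with GIF1 (right) in each library, divided by the mean of the 3 controls, with controls in dark grey and GA libraries in orange. The GA points lie to the right of all control points for every gene except KRP1 and CDKA1 on the left and GRF9 on the right, and MCM7 is at the top on the left.

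Class I KNOX homeobox genes, which mark the undifferentiated cells of the shoot meristem, had the largest increases among the lists. All 4 tested members rose, and OSH43 (LOC_Os03g56110) was under the tested level. OSH1 (LOC_Os03g51690) stood at 6.19, 10.3 and 7.47 normalised reads in the controls and at 54.6, 70.9 and 69.1 after GA. Every GA library was above every control, and OSH1 rose 8.14-fold (limma, 2.89 ± 0.29 log2 units, SE, adjusted p = 1.06e-09). OSH15 (LOC_Os07g03770) stood at 6.19, 8.39 and 8.40 normalised reads in the controls and at 64.3, 67.0 and 56.5 after GA. OSH15 rose 8.17-fold with no overlap between the groups (limma, 2.88 ± 0.28 log2 units, SE, adjusted p = 9.12e-10). OSH71 and OSH6 rose by log2 fold changes of 1.92 and 2.32, and all 4 were called in each refit without 1 library. OSH15 and OSH6 reached the tested level only through the GA libraries. Of the OSH1 controls only that at 10.3 normalised reads reached it, so OSH1 also needed the GA libraries to be tested.

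Among genes linked to GA responses in rice stems, ACE1 (LOC_Os03g22510), which promotes division of the intercalary meristem in deepwater rice, stood at 104, 107 and 109 normalised reads in the controls and at 308, 304 and 316 after GA. The groups did not overlap, and ACE1 rose 2.90-fold (limma, 1.53 ± 0.10 log2 units, SE, adjusted p = 1.25e-13). DEC1 (LOC_Os12g42250), a zinc-finger factor that restrains the same elongation, stood at 141, 124 and 175 normalised reads in the controls and at 45.0, 58.3 and 60.7 after GA. Every GA library was below every control, and DEC1 fell 2.68-fold (limma, -1.41 ± 0.16 log2 units, SE, adjusted p = 2.01e-08). These 2 genes, an accelerator and a decelerator of internode elongation, thus moved in opposite directions. Of the 8 tested members of that list, HOX4 (LOC_Os09g29460) and YABBY1 (LOC_Os07g06620) were higher by 0.13 and 0.21 log2 units, and 4 did not pass, among them GASR1 (LOC_Os03g41060), a GA-stimulated transcript, at 0.35 and D1 (LOC_Os05g26890), a G protein subunit, at 0.06. HOX4 no longer passed without control replicate 1, 2 or 3 or GA replicate 1 or 2 or with DESeq2 (highest adjusted p = 0.189). YABBY1 no longer passed without control replicate 1 or 2 or GA replicate 1 or 2 or with no filter or DESeq2 (highest adjusted p = 0.273).

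The hormone's own pathway carried both signs. Of 9 tested genes of GA inactivation, GA2ox1 (LOC_Os05g06670), GA2ox3 (LOC_Os01g55240) and GA2ox7 (LOC_Os01g11150) rose by 1.77, 1.43 and 1.45 log2 units, GA2ox1 having reached the tested level only through the GA libraries, GA2ox8 was higher by 0.44 log2 units, GA2ox9 (LOC_Os02g41954) was lower, at -0.85 log2 units and 4 did not pass. Of 8 tested biosynthesis genes 4 were lower, GA20ox1 (LOC_Os03g63970) most with -0.78 log2 units, and KAO (LOC_Os06g02019) was higher by 0.46 log2 units. Among 7 genes of perception and signalling the receptor GID1 (LOC_Os05g33730) was lower, at -0.70 log2 units, while SLR1 (LOC_Os03g49990), GID2 (LOC_Os02g36974) and SLRL1 (LOC_Os01g45860) were higher by 0.34, 0.18 and 0.76 log2 units. Of 8 tested Polycomb and H3K27 demethylase genes none was called, 3 were higher (LHP1, CLF and NGR5) and 1 was lower (EZ1), within -0.19 to 0.19. Over all tested genes 2.22% were called, 17.1% were higher and 15.9% lower. The absence of calls among 8 members is thus no result about them. GA2ox8 no longer passed without control replicate 1 or 3 or GA replicate 1 or 2 or with DESeq2 (highest adjusted p = 0.127). LHP1 no longer passed without control replicate 1 or 3 or GA replicate 1 or 2 or with DESeq2 (highest adjusted p = 0.0806). CLF no longer passed without control replicate 3 or GA replicate 1 or with DESeq2 (highest adjusted p = 0.0986). NGR5 no longer passed without control replicate 1, 2 or 3 or GA replicate 1 or 2 or with DESeq2 (highest adjusted p = 0.137). EZ1 no longer passed without control replicate 3 (highest adjusted p = 0.0574).

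No expansin, cellulose synthase or BC1 was called, where 2.22% of all tested genes were. With so few members this absence of calls is no result about them. Expansins loosen the wall as cells extend. Of 8 beta-expansins, 7 were higher, none was lower and 1 did not pass, with a median of 0.45, where 17.1% of all tested genes were higher. EXPB7 (LOC_Os03g01270) stood at 484, 523 and 484 normalised reads in the controls and at 776, 822 and 736 after GA (limma, 0.64 log2 units, adjusted p = 2.95e-10), and EXPB4 (LOC_Os10g40730) stood at 4547, 4162 and 4245 normalised reads in the controls and at 6333, 6101 and 6106 after GA (limma, 0.52 log2 units, adjusted p = 1.89e-14). Both genes were higher in every GA library than in any control.

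Of 8 alpha-expansins tested out of 12, 5 were higher, none was lower and 3 did not pass, against 17.1% higher and 15.9% lower of all tested genes. EXPA6 (LOC_Os03g21820) was highest with 0.92 (limma adjusted p = 3.47e-08), and EXPA4 (LOC_Os05g39990) was higher by 0.37 log2 units. Of 8 cellulose synthases, 3 were higher and 4 lower, and BC1, a COBRA-like wall protein of the same list, did not pass: CESA5 (LOC_Os03g62090) and CESA1 (LOC_Os05g08370) of the primary wall were higher by 0.45 and 0.17 log2 units, CESA3 (LOC_Os07g24190), also of the primary wall, was lower, at -0.41 log2 units, and CESA9 (LOC_Os09g25490) of the secondary wall was lower, at -0.26 log2 units.

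Aquaporins, the water channels of the plasma membrane and vacuole, were mostly lower. Of 12 tested members out of 14, 9 were lower, 1 was higher and 2 did not pass, with a median of -0.28. Of all tested genes 15.9% were lower and 17.1% higher on adjusted p alone. The share passing went from 14% of genes under 50 normalised reads to 59% at 1000 or more, so such counts also depend on level. The largest differences were those of PIP1-3 (LOC_Os02g57720, -0.61), PIP2-7 (LOC_Os09g36930, -0.60) and the vacuolar TIP1-2 (LOC_Os01g74450, -0.57). TIP1-1 (LOC_Os03g05290) stood at 41766, 40524 and 39409.6 normalised reads in the controls and at 30289, 29272 and 29811 after GA, with no overlap (limma adjusted p = 4.63e-17). PIP2-6 (LOC_Os04g16450) was the member that was higher, by 0.18.

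**Figure D4:**
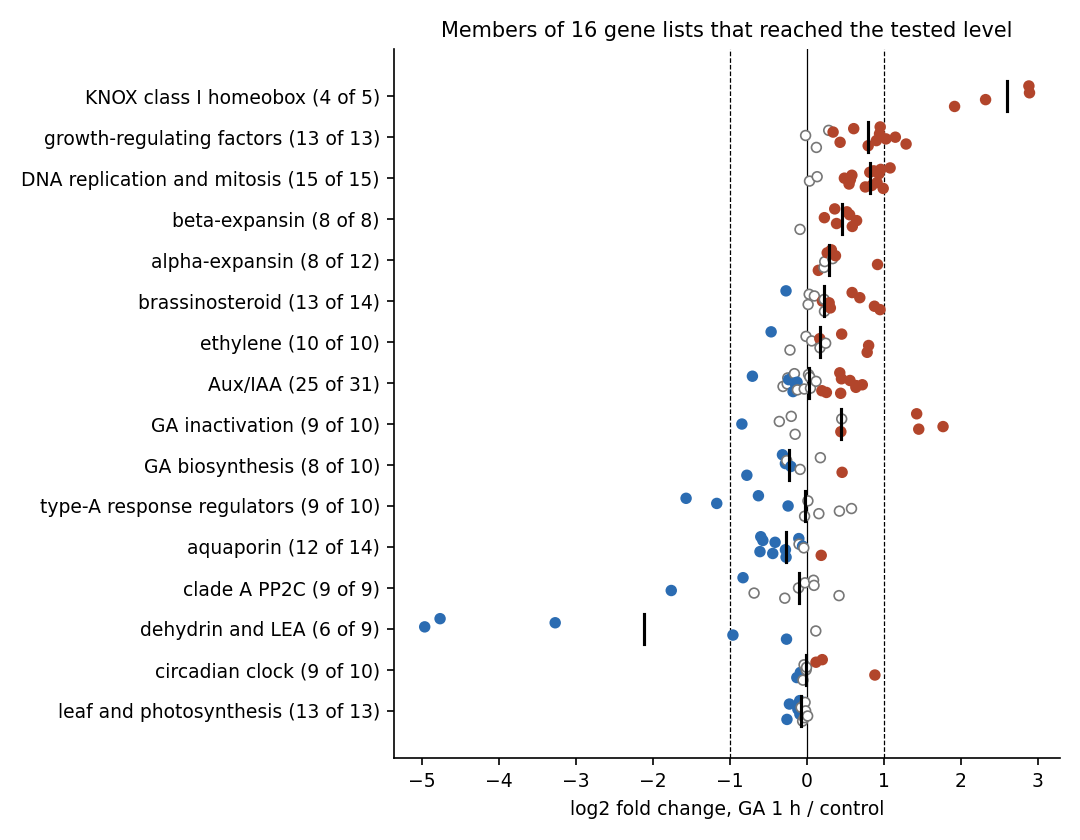
Log2 fold change (GA over control) of each tested member of 16 gene lists, with the number tested of the number listed in brackets; filled red and blue points passed on limma's adjusted p as higher and lower, open points did not, black bars are list medians and dashed lines mark 2-fold. KNOX genes lie above 2-fold and 3 dehydrin and LEA genes far below it, while expansins and genes of DNA replication lie mostly between 0 and 1.

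Genes of cytokinin signalling, breakdown and activation that passed on adjusted p were lower or fell, while others did not pass. Type-A response regulators are quickly raised by cytokinin and damp its signal. Of 9 tested members 2 fell, 2 were lower, none was higher and 5 did not pass, and the list median was only -0.03. Of all tested genes 0.996% fell, and on adjusted p alone 15.9% were lower and 17.1% higher. RR9 (LOC_Os11g04720) stood at 92.9, 112 and 98.9 normalised reads in the controls and at 41.8, 30.1 and 29.3 after GA. RR9 fell with no overlap between the groups (limma, -1.57 ± 0.19 log2 units, SE, adjusted p = 5.31e-08). RR10 (LOC_Os12g04500) stood at 179, 167 and 155 normalised reads in the controls and at 71.8, 73.8 and 74.3 after GA, and fell by 1.17 on the log2 scale (limma adjusted p = 1.28e-08). RR9 and RR10 are near-identical copies on chromosomes 11 and 12, so reads may be split between them and their values are uncertain singly. RR4 (LOC_Os01g72330) and RR2 (LOC_Os02g35180) were lower, at -0.63 and -0.25 log2 units. Of 7 tested genes that degrade or activate cytokinin, 3 were lower, among them LOG (LOC_Os01g40630), of cytokinin activation, at -0.22 and the oxidase CKX4 (LOC_Os01g71310) at -0.46 log2 units, and none was higher. CKX4 no longer passed without control replicate 1 or 2 or GA replicate 2 or 3 or with no filter or DESeq2 (highest adjusted p = 0.205).

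Of 13 tested brassinosteroid genes 7 were higher, 1 was lower and 5 did not pass, where 17.1% of all tested genes were higher and 15.9% lower. BU1 (LOC_Os06g12210), a helix-loop-helix protein of the response, DLT (LOC_Os06g03710), a GRAS protein of signalling, and D2 (LOC_Os01g10040), a P450 of synthesis, were higher by 0.95, 0.88 and 0.69 log2 units. BZR1 (LOC_Os07g39220), the main transcription factor, stood at 594, 595 and 547 normalised reads in the controls and at 863, 859 and 883 after GA (limma, 0.59 log2 units, adjusted p = 3.70e-10). BRD1 (LOC_Os03g40540), of the last steps of synthesis, was lower, at -0.27 log2 units.

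Auxin genes went both ways. Of 25 tested Aux/IAA genes, which encode early auxin repressors, 9 were higher, 6 were lower and 10 did not pass, within -0.71 to 0.72. The shares over all tested genes were 17.1% higher and 15.9% lower. IAA13 (LOC_Os03g53150) and IAA14 (LOC_Os03g58350) were higher by 0.64 and 0.56 log2 units. Among 9 tested GH3 enzymes, most of which join auxin to amino acids, GH3-2 (LOC_Os01g55940) stood at 29.9, 19.6 and 34.5 normalised reads in the controls and at 17.1, 9.72 and 5.23 after GA. Of its GA libraries only that at 17.1 reached the tested level, so GH3-2 needed the controls to be tested. GH3-2 fell (limma, -1.41 ± 0.37 log2 units, SE, adjusted p = 0.00322), with no overlap but a narrow gap, while GH3-1 (LOC_Os01g57610) was higher by 0.94 log2 units and 2 others were lower. Of 7 tested auxin transport genes, PIN10a (LOC_Os01g45550) was lower, at -0.31 log2 units and the rest did not pass.

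In the ethylene list of 10, 4 genes were higher, 1 was lower and 5 did not pass, against 17.1% higher and 15.9% lower of all tested genes. ACO3 (LOC_Os02g53180), an ACC oxidase of the last step of ethylene synthesis, stood at 9096, 8970.2 and 8629 normalised reads in the controls and at 15247, 15413 and 15237 after GA (limma, 0.78 log2 units, adjusted p = 8.50e-22). ETR2 (LOC_Os04g08740), a receptor, was higher by 0.80 log2 units, and ACO1 (LOC_Os09g27820), another ACC oxidase, was higher by 0.45 log2 units.

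Jasmonate genes gave 1 call and strigolactone genes none. As background for these short lists, 2.22% of all tested genes were called. On adjusted p alone 17.1% of all tested genes were higher and 15.9% lower. Of 9 tested JAZ repressors, JAZ8 (LOC_Os09g26780) stood at 117, 106 and 122 normalised reads in the controls and at 55.7, 52.5 and 60.7 after GA, a fall at the 2-fold minimum (limma, -1.02 log2 units, adjusted p = 3.25e-06). It came to less than 2-fold without control replicate 3 or GA replicate 2, where the log2 fold change of smallest size was -0.97. JAZ11 (LOC_Os03g08320) and JAZ12 (LOC_Os10g25290) were lower, at -0.74 and -0.50 log2 units, and JAZ7 (LOC_Os07g42370) and JAZ3 (LOC_Os08g33160) were higher by 0.17 and 0.12 log2 units. Of the 5 genes of jasmonate synthesis and MYC2, all tested, AOS2 (LOC_Os03g12500), an allene oxide synthase, was lower, at -0.74 log2 units, AOC (LOC_Os03g32314), an allene oxide cyclase, at -0.14, and MYC2 did not pass. Of 6 tested strigolactone genes 2 were lower, the receptor D14 (LOC_Os03g10620) at -0.28 and the repressor D53 (LOC_Os11g01330) at -0.16 log2 units. JAZ11 no longer passed without control replicate 1 or 3 or GA replicate 3 or with DESeq2 (highest adjusted p = 0.132). JAZ12 no longer passed without control replicate 3 or GA replicate 1 or with DESeq2 (highest adjusted p = 0.151). JAZ3 no longer passed without control replicate 2 or 3 or GA replicate 1 or 3 or with DESeq2 (highest adjusted p = 0.113). AOC no longer passed without control replicate 1 or GA replicate 2 (highest adjusted p = 0.178). D53 no longer passed without control replicate 1 (highest adjusted p = 0.0615).

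Stress and defence genes gave 2 calls. DREB1B (LOC_Os09g35010), a cold-response factor, stood at 6.19, 6.53 and 10.3 normalised reads in the controls and at 22.5, 23.3 and 19.9 after GA, a rise from low levels (limma, 1.43 log2 units, adjusted p = 0.00249). Of the controls only that at 10.3 reached the tested level, so DREB1B needed the GA libraries to be tested, which favoured a rise. Its relative DREB1A (LOC_Os09g35030) was higher by 0.57 log2 units, NAC5 (LOC_Os11g08210) was lower, at -0.61 log2 units, and 6 of the 7 tested stress factors passed on adjusted p. Among 14 WRKY factors 3 were higher and 1 lower, WRKY24 (LOC_Os01g61080) with 0.53. Of 7 tested heat-shock genes none rose and HSFA2d (LOC_Os03g06630) was lower, at -0.23 log2 units. Over all tested genes 17.1% were higher, 15.9% lower and 1.22% rose. The WRKY and heat-shock counts are thus no result about these lists. HSFA2d no longer passed without control replicate 2 (highest adjusted p = 0.0596).

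CYP76M7 (LOC_Os02g36110), named for a P450 of diterpenoid defence but uncertain in name because RefSeq places that symbol elsewhere, stood at 46.5, 32.6 and 38.3 normalised reads in the controls and at 5.35, 7.77 and 4.19 after GA and fell (limma, -2.59 log2 units, adjusted p = 3.64e-07). It was the one member of 8 to reach the tested level, and only through the controls. CPS4 (LOC_Os04g09900), which makes the precursor of momilactone phytoalexins, had 40 reads over the 3 controls and none over the 3 GA libraries, at least 12.5-fold lower taking 3 reads over the group as the floor, a bound on counting error alone.

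No call was made in the lists of the clock, heading date, light receptors, phosphate and iron, which at 2.22% called over all tested genes and so few members is no result about them. Of 9 tested clock genes 3 were higher and 2 lower, LHY (LOC_Os08g06110), a morning gene, at -0.13 log2 units, PRR1 (LOC_Os02g40510), an evening gene, being higher by 0.88 log2 units. DTH8 (LOC_Os08g07740), the tested member of 6 heading-date genes, was lower, at -0.90 log2 units. Of 8 tested phytochrome and PIF-like genes PIL16 (LOC_Os05g04740) was higher by 0.28 log2 units, and PIL13 (LOC_Os03g56950) and PHYA (LOC_Os03g51030) were lower, at -0.35 and -0.17 log2 units. Of 8 tested phosphate genes 2 were higher, PHO1-2 (LOC_Os02g56510) by 0.65, and PT8 (LOC_Os10g30790), a phosphate transporter, was lower, at -0.45 log2 units. Of 7 tested iron genes 3 were lower, NAS3 (LOC_Os07g48980), of nicotianamine synthesis, at -0.34 log2 units, and none was higher. The other iron genes that were lower, HRZ1 (LOC_Os01g49470) and DMAS1 (LOC_Os03g13390), no longer passed in 4 and 9 of 14 settings. DTH8 no longer passed without control replicate 2 or 3 or GA replicate 1 or with no filter or DESeq2 (highest adjusted p = 0.159).

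Leaf, root and clock lists were followed as markers, and their transcript levels do not measure the makeup of the samples directly. Of 13 leaf and photosynthesis genes 7 were lower, by at most 0.26, none was higher, and their summed level was 1394170 to 1407060 in the controls and 1253060 to 1270380 after GA. RBCS3 (LOC_Os12g19381) and RBCS2 (LOC_Os12g17600), near-identical Rubisco small subunit genes whose reads may be shared, were lower, at -0.26 and -0.23 log2 units. Of the root list Lsi1 and NRAMP5 were tested and neither passed, RCc3 ranged from 0 to 4.66 normalised reads, and the summed level was 671 to 737 in the controls and 652 to 689 after GA. Clock genes summed to 29907 to 30387 and to 28392 to 28752. Summed leaf and clock transcripts were thus slightly lower, with no overlap between the groups, and summed root markers overlapped. The clock sum does not show single genes, among which PRR1 was higher by 0.88 log2 units. The part of these shifts in the changes above was not tested. Among reference genes, ACT1 (LOC_Os03g50885) was higher by 0.54 log2 units and UBQ5 (LOC_Os01g22490, a name with the same doubt as GRF2) by 0.34.

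Outside the lists, the 2 genes that rose most and the 2 that fell most were taken from called genes whose groups did not overlap and whose mean level was 50 or more. LOC_Os01g03360 stood at 3846, 3969 and 3746 normalised reads in the controls and at 277, 253 and 254 after GA, a log2 fold change of -3.88 (SE 0.05, limma adjusted p = 2.97e-32), and LOC_Os01g61610 fell by 4.11 log2 units. LOC_Os10g26340 and LOC_Os05g29810 rose by 3.04 and 2.44 log2 units. LOC_Os10g26340 stood at 28.9, 2.80 and 17.7 normalised reads in the controls and at 101, 106 and 107 after GA, so its controls differed widely among themselves. The files and the reference used here give these 4 genes no name.

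Called genes were spread over the genome with some neighbouring pairs. The share called ranged from 1.3% on chromosome 7 to 2.77% on chromosome 12. A tested neighbour called in the same direction was found for 18 of 284 genes that rose (6.34%, against 2.42% of all tested genes with such a neighbour) and for 25 of 232 that fell (10.8%, against 1.95%). The longest run was of 4 genes for those that fell and of 2 for those that rose.

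The series also compared slr1, a knockout of the DELLA gene, with its own wild type, 3 libraries each, in a table normalised separately. There 6.57% of 25132 tested genes rose, 7.14% fell and 13.7% were called. Values are set side by side because both conditions bear on DELLA action. No test of a difference between these comparisons was made, and the genes set side by side were chosen after their values were seen. ACE1 rose in both, by 1.53 after GA and by 2.14 in slr1, as did GA2ox3 (1.43 and 2.34), and RR9 fell in both (-1.57 and -1.21).

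Other genes carried opposite signs. RAB16A fell after GA (-4.77) and rose in slr1 (4.58, SE 0.85, limma adjusted p = 0.0101), from 24.1 ± 30.2 to 406 ± 254 (SD, n = 3 each). GH3-2 fell after GA (-1.41) and rose in slr1 (3.01). DREB1B rose after GA (1.43) and fell in slr1 (-4.03). In the GA comparison GH3-2 needed the controls and DREB1B the GA libraries to be tested, which favoured their signs there. RAmy3D, which fell after GA, was at -0.53 in slr1 and did not pass there (limma adjusted p = 0.673).

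By list, the 15 genes of DNA replication and mitosis had a median of 0.82 after GA and of -0.64 in slr1, where 0 were called. The GRFs with GIF1 had medians of 0.80 and -0.17, with 0 rising and 1 falling in slr1. Beta-expansins had medians of 0.45 and 2.06, with 0 rising after GA and 5 in slr1, and alpha-expansins medians of 0.29 and 1.05, with 0 and 4 rising. Aux/IAA genes had medians of 0.02 and 1.04, with 15 of 27 tested rising in slr1 and 2 falling. KNOX genes had medians of 2.60 and 2.24, with 4 of 4 tested rising after GA and 3 of 5 in slr1. OSH15 and OSH6 reached the tested level only through the GA libraries and had to be higher there. OSH1 also needed the GA libraries to be tested, and the sets tested differed. Genes of GA inactivation had medians of 0.44 and 2.35, with 3 and 6 rising. Dehydrin and LEA genes had medians of -2.12 (6 tested) and 1.05 (7 tested), and aquaporins of -0.28 (12 tested) and 0.66 (11 tested). In the GA comparison LEA3 and RAB16B reached the tested level only through the controls and had to be lower. The filter thus partly fixed the median of -2.12, and the sets tested differed. Type-A response regulators had medians of -0.03 and -0.96, with 2 falling after GA and 3 in slr1. Over all tested genes the medians were -0.01 and 0.01.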

How the data were processed

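The authors deposited each level as a signal. Its values are read counts of a gene over a library-wide size factor, judging from the file headers and the steps between values. The submitters' processing notes name HISAT2, featureCounts 2.0.0, DESeq and DESeq2 1.38.3. The labels' protocols name a TruSeq RNA kit and paired-end reads. Genome build and strand setting: not given in the sources used here. It is thus not known whether reads of antisense or overlapping genes were separated.

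Tested were genes that reached 10 normalised reads in 3 or more libraries, with limma 3.58.1 (R 4.3.3, trend) on log2(value + 1), with Benjamini-Hochberg adjustment over all 23283. Fold changes on this scale understate those of low genes, and ratios are those of group means. SE is limma's standard error. A call needed a 2-fold change or more (log2 fold change of 1 or beyond in size) besides an adjusted p below 0.05. Whole reads were recovered at 100% of values, giving 17919838 to 20979965 per library. edgeR 4.0.16 and DESeq2 1.42.0 on those reads were alternatives. With these tests 299 and 242 genes rose, and 236 and 200 fell. The same limma test was run on the slr1 table, whose values were normalised separately.

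The genes described, the 41 lists and the tests were chosen with earlier results of these data known. Named were called list members, up to 4 other tested members of a list by adjusted p, and outside the lists the 2 genes that rose and the 2 that fell most among called genes of mean level at least 50 with groups that did not overlap. The text also names further members of the described lists, chosen after their values were seen. Floors and counts of reads cover counting error only. H3K27me3 files and the authors' own fold changes and p-values were not used. Results for some members of the lists are not reported here.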

Additional observations from a re-analysis of the deposited data

How the results depend on the processing

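The main fit gave 284 genes that rose and 232 that fell, with 3981 higher and 3700 lower on adjusted p alone. Some counts of calls moved by over 1.5 times with a pseudocount of 5 or a changed filter on low values. With a pseudocount of 5, 180 rose, beyond 1.5 times, and 163 fell, within it. With the filter raised to 50 normalised reads 134 rose and 74 fell, both beyond 1.5 times. With no filter 414 rose, within 1.5 times, and 392 fell, beyond it. Low genes make up most calls, and a larger pseudocount or a stricter filter acts on those by construction. The other settings were within 1.5 times of the counts of the main fit. They were a pseudocount of 0.5, TMM rescaling, edgeR and DESeq2 on recovered reads. Without 1 library the counts ranged from 274 to 322 for genes that rose, from 212 to 255 for those that fell, from 3390 to 3597 for those higher and from 3096 to 3379 for those lower. Same-numbered libraries did not deviate together (correlations of -0.01, -0.03 and -0.02), so the numbers were not taken as pairs. With the replicate block 279 rose, 227 fell, 3925 were higher and 3609 were lower, and RAB16C and YABBY1 no longer passed. Of the 30 called genes among the 175 named by the rule, 12 were not tested with the filter at 50, and 4 lost their call in another setting. GRF12 lost it in 6 settings, JAZ8 in 3, and GRF2 and NCED4 in 1 each. RAB25 and NRAMP5 did not pass in any of these fits. Without 1 library RAB25 ranged from -0.121 to 0.237 log2 units, its negative value coming without control replicate 2, and NRAMP5 from -0.014 to 0.0896, its negative value coming without GA replicate 1. Of 116 named genes that passed on adjusted p alone, 27 no longer passed in some setting, all 27 without 1 library and 16 of them with DESeq2. No named gene changed sign under TMM rescaling. With 3 libraries a group and few reads for many called genes, calls under 50 normalised reads are the least certain.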

Other observations

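In GA replicate 3, 3 genes stood at least 10 times above the highest of the other 5 libraries at 50 normalised reads or more, the highest at 9242 normalised reads, and all 3 were counted among those that rose. In each of the other 5 libraries 0 genes did so.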
